A study of Mus musculus with 4 samples.

Results

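The 8 protein kinase C (PKC) isoform genes Prkca, Prkcb, Prkcd, Prkce, Prkch, Prkci, Prkcq and Prkcz were chosen by symbol from the 19465 features of a Visium experiment on coronal sections of formalin-fixed, paraffin-embedded (FFPE) mouse brain. All 8 were detected and all passed the filter on low counts in each of the 7 comparisons of diets. The family was proposed with earlier results of the same sections in view, among them the levels over the areas and the lower Prkcd of the HF group in hippocampus and striatum. Those values are therefore given as a description. The sections came from wild-type male C57BL/6J pups at postnatal day 21 whose dams ate a conventional folic acid (FA) diet of 2 mg/kg (MF group) or an excess FA diet of 20 mg/kg (HF group) from before mating through pregnancy and lactation. Each diet had 2 sections, described as biological replicates, but the labels do not say whether the pups came from separate litters, so p-values measure the spread between these sections only.

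PKC enzymes are serine and threonine kinases that lie downstream of Gq-coupled receptors and phospholipase C, which cleaves a membrane lipid into diacylglycerol and inositol trisphosphate. The conventional isoforms (Prkca and Prkcb here) need calcium and diacylglycerol. Prkcd, Prkce, Prkch and Prkcq answer to diacylglycerol without calcium, and the atypical isoforms Prkci and Prkcz to neither. In brain the family is known for roles in synaptic plasticity, receptor trafficking and transmitter release, and Prkcd is a commonly used marker of thalamic relay neurons.

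The platform reads each gene with short probe pairs and counts the captured molecules as unique molecular identifiers (UMIs) in spots that each cover several cells. UMIs were summed over the spots of an area within a section and scaled to a total of 1000000 (CPM). A fall in such a sum may be fewer cells of a type or less RNA per cell, and these cannot be told apart. Probes differ between genes, so levels are compared between areas and sections for 1 isoform and never between isoforms. Depth ranged from 34983708 to 90098381 UMIs per section, with the deepest in the MF group and the shallowest in the HF group. HF replicate 2 stood apart: in hypothalamus it held 2.27 CPM of Pmch against 1408 to 3025 CPM in the other sections, and 2059 CPM of Avp against 1.79 to 7.60 CPM. Thalamic spots made up 15.7% of HF replicate 2 and 18.2% to 18.6% of the other sections. Spots fell into 22 clusters, clustered without the isoforms, and 18 areas were described: cortical layers L2-3, L4, L5 and L6, olfactory cortex (OLF), CA1, CA2-3, dentate gyrus (DG), hippocampal matrix, 2 thalamic (TH) areas led by Tnnt1 and by Calb2, an unnamed cluster led by Six3 and Pvalb, medial habenula (MHb), hypothalamus (HY), striatum (STR), white matter (WM), choroid plexus (CP) and meninges. They held 12220 spots, with the fewest in CP, at 8 to 12 per section.

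The isoforms lie on 8 chromosomes of the mouse assembly GRCm38 (mm10) in the GENCODE vM21 annotation. Prkca spans chromosome 11 from 107933387 to 108343928 on the minus strand, and Prkcb spans chromosome 7 from 122288751 to 122634402 on the plus strand. Prkcd spans chromosome 14 from 30595354 to 30626210 (minus), Prkce chromosome 17 from 86167785 to 86657919 (plus), Prkch chromosome 12 from 73584796 to 73778185 (plus) and Prkcq chromosome 2 from 11172108 to 11301222 (plus). The atypical genes Prkci and Prkcz span chromosome 3 from 30995747 to 31052959 (plus) and chromosome 4 from 155260129 to 155361361 (minus).

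Most of the results turn on Prkcd, so the 250 bases before its start are shown from the RefSeq promoter table (GRCm38.p6, chr14:30626209-30626458, minus strand, read 5′ to 3′), with a match to CTTTGA on either strand in capitals. These letters are the core of the sequence bound by TCF/LEF factors, and Tcf7l2 and Lef1 are among the thalamic markers used below.
Prkcd: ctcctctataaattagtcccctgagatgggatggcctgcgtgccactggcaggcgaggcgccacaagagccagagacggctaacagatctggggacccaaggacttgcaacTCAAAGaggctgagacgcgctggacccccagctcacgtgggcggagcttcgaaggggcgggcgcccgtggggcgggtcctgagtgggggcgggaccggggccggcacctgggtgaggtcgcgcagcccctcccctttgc
The Prkcd window held 1 match, and 13.8% of the 32851 promoter windows of the same length hold the letters on either strand. The match describes the letters and not a bound site.

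**Figure D1:**
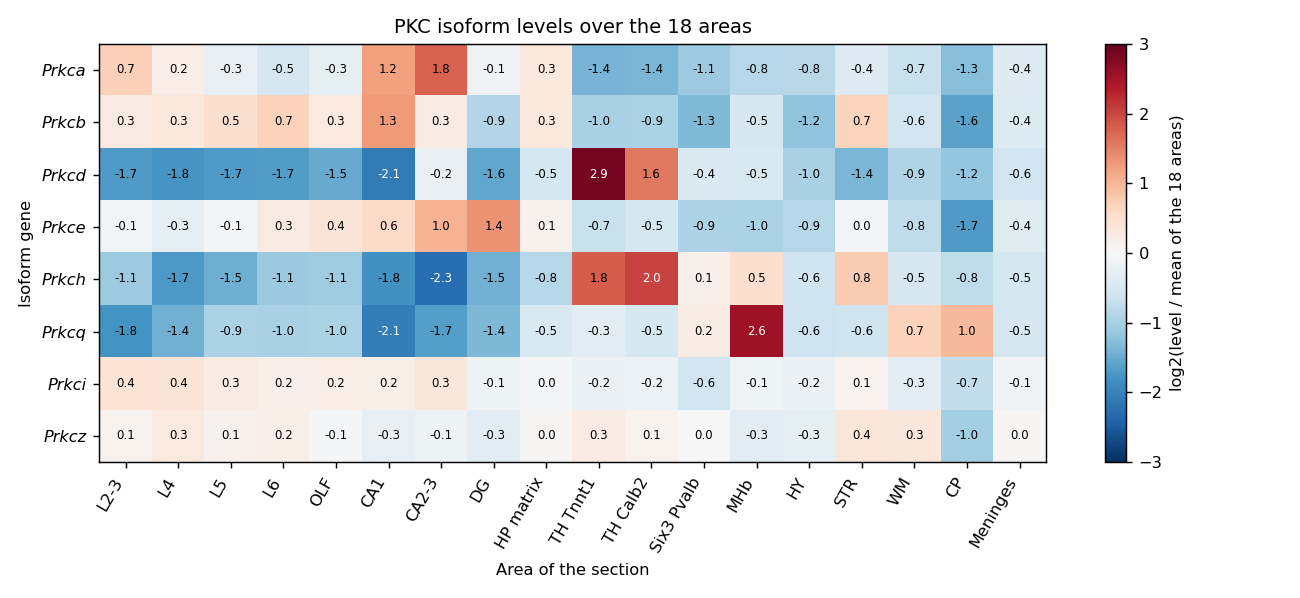
Level of each PKC isoform gene (rows) in the 18 areas (columns), as log2 of the mean CPM of the 4 sections over the mean of the 18 areas for the same gene; red is above that mean and blue below. Prkcd and Prkch are highest in the 2 thalamic areas, Prkcq in medial habenula, Prkca, Prkcb and Prkce in hippocampal fields, and Prkci and Prkcz vary little.

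The conventional isoforms were highest in the hippocampal pyramidal fields and lowest in thalamus or choroid plexus. Prkca, encoding PKC alpha, held 471 and 521 CPM in CA2-3 of the MF sections and 548 and 566 CPM in the HF sections. CA1 followed with 313 to 385 CPM and L2-3 with 239 to 273 CPM, and the ranges of these 3 areas did not overlap. Prkca was lowest in the Tnnt1 thalamus, at 59.3 ± 9.12 CPM (SD, n = 4 sections), so that the highest area stood 8.88-fold above the lowest. Prkcb, encoding the PKC beta isoforms, held 1203 and 1523 CPM in CA1 of the MF sections and 1518 and 1463 CPM in the HF sections. No other area reached that range: L6 held 965 ± 42.8 CPM and STR 948 ± 34.3 CPM, and these 2 overlapped. Prkcb in DG was 323 ± 45.4 CPM, so the granule cell field lay well below CA1 within the same hippocampus.

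Of the calcium-independent isoforms, Prkce was highest in DG, Prkcq in MHb, and Prkcd and Prkch in thalamus. Prkce, encoding PKC epsilon, held 937 and 957 CPM in DG of the MF sections against 1037 and 954 CPM in the HF group. CA2-3 came next at 777 ± 44.6 CPM and CA1 at 563 ± 28.8 CPM, without overlap between the 3 fields, and CP was lowest at 118 ± 51.8 CPM. Within the hippocampus the order of areas thus differed by isoform: CA2-3 was first for Prkca, CA1 for Prkcb and DG for Prkce. Prkcq, encoding PKC theta, was highest in MHb, at 254 and 318 CPM in the MF sections against 280 and 295 CPM in the HF group. CP (96.4 ± 16.1 CPM) and WM (78.7 ± 7.67 CPM) followed, and CA1 was lowest at 11.6 ± 1.55 CPM, 24.8-fold below MHb.

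Prkcd and Prkch were the thalamic isoforms. Prkcd, encoding PKC delta, held 1419 and 1453 CPM in the Tnnt1 thalamus of the MF sections and 1488 and 1211 CPM in the HF sections. The Calb2 thalamus held 593 and 590 CPM in the MF sections against 779 and 348 CPM in the HF group, which is below the Tnnt1 thalamus in all 4 sections. CA2-3 followed the thalamus at 162 ± 29.3 CPM and CA1 last at 44.6 ± 19.6 CPM, 31.3-fold below the Tnnt1 thalamus. Prkch, encoding PKC eta, was sparse, with 237 to 517 UMIs over all thalamic spots of a section. It held 35.6 ± 4.91 CPM in the Calb2 thalamus and 30.5 ± 2.30 CPM in the Tnnt1 thalamus, whose ranges overlapped, against 14.7 ± 4.36 CPM in STR, the next area. HF replicate 1 had no Prkch UMI in CA1 or DG, which at 3 counts allows up to 7.61 and 6.10 CPM, and such limits cover counting error only.

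Within the thalamus Prkcd varied far more than Prkch. Over 10 sub-clusters of the thalamic spots, none of which could be named from the marker lists, Prkcd ran from 203 ± 94.0 CPM in the one led by Calb2 and C1ql3 to 1739 ± 244 CPM in the one led by Eps8l2 and Tnnt1. Prkch ran from 23.7 ± 6.14 CPM in the latter to 42.5 ± 9.80 CPM in the sub-cluster led by Snx20 and Igsf21. The sub-cluster led by Calb2 and C1ql3 held the least Prkcd in every section. The sub-cluster with the most Prkcd differed between sections, as did those with the most and the least Prkch.

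The atypical isoforms were the most even. Prkci, encoding PKC iota, ran from 35.0 ± 9.86 CPM in CP to 77.3 ± 4.79 CPM in L2-3, a 2.21-fold span, and the ranges of all 17 pairs of neighbouring areas overlapped. Prkcz, encoding PKC zeta, ran from 74.0 ± 21.2 CPM in CP to 193 ± 34.8 CPM in STR, a 2.61-fold span, with 16 of 17 neighbouring pairs overlapping. The CP levels came from 5 to 26 Prkci UMIs and 13 to 58 Prkcz UMIs per section. HF replicate 2 carried the most Prkcz of the 4 sections in STR, at 245 CPM against 170 to 181 CPM. Without it WM, at 179 CPM, took the first place from STR, at 176 CPM. The highest of the 18 areas was the same without that section for 6 of the 8 isoforms, Prkci, which moved from L2-3 to L4, being the other exception.

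**Figure D2:**
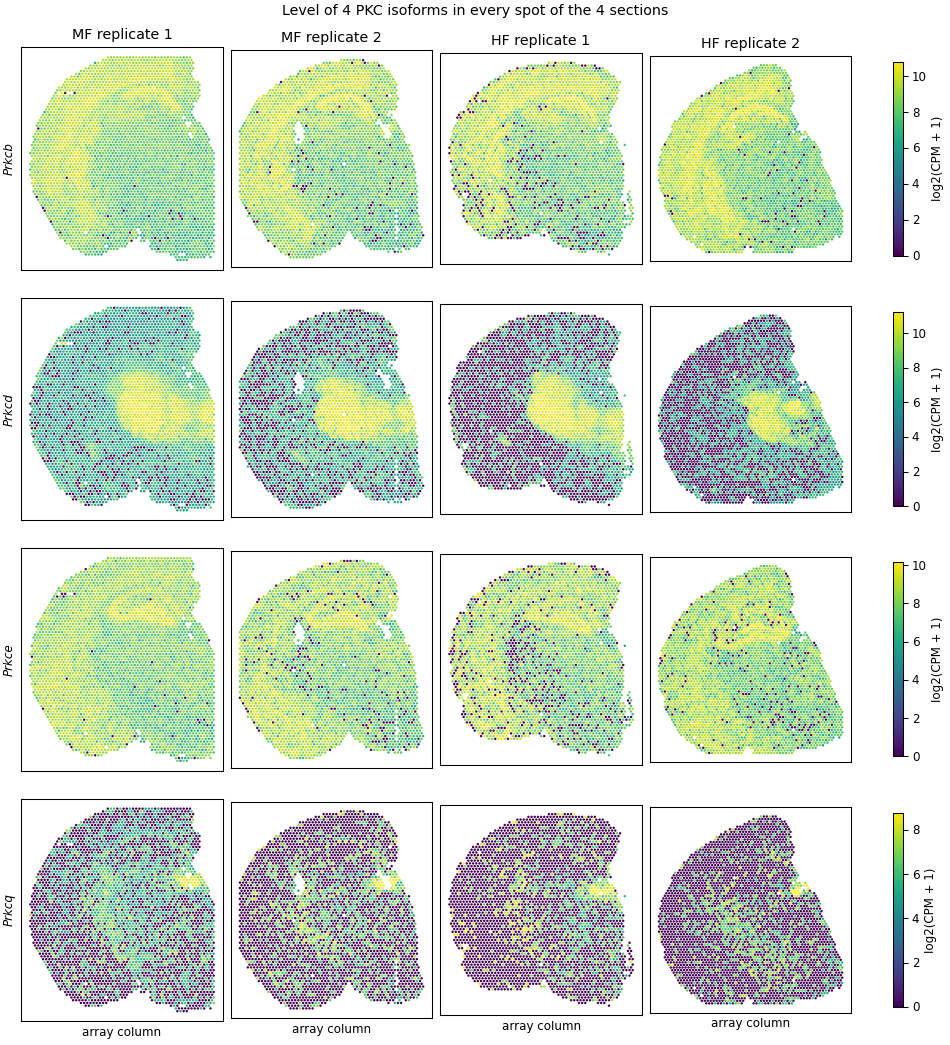
Level of Prkcb, Prkcd, Prkce and Prkcq (rows, log2(CPM + 1) per spot) at the array position of every spot in the 4 sections (columns). Prkcd fills the thalamus, Prkce the hippocampal cell layers, Prkcq the medial habenula and Prkcb the cortex, CA1 and striatum; dark spots without a UMI are more frequent in the shallower sections.

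The isoform make-up of an area is the share of each gene in the summed UMIs of the 8, which compares areas for 1 isoform. Prkcd took 60.8% ± 2.65 of these UMIs in the Tnnt1 thalamus (61.6% and 61.7% in the MF sections, 62.9% and 56.9% in the HF sections) but 38.1% ± 7.49 in the Calb2 thalamus and 1.72% ± 0.814 in CA1. The Prkcb share moved the other way, from 13.2% ± 0.916 in the Tnnt1 thalamus to 54.8% ± 3.27 in CA1 and 52.3% ± 1.82 in STR. Prkce took 57.2% ± 1.87 in DG and 10.3% ± 0.422 in the Tnnt1 thalamus. Prkcq took 22.0% ± 1.85 in MHb against 0.443% ± 0.0385 in CA1. Shares within an area sum to the whole, so a rise of 1 isoform lowers the others. Summed over the 8 genes, the level ran from 673 ± 131 CPM in CP to 2601 ± 159 CPM in CA1, and the Tnnt1 thalamus (2288 ± 110 CPM) and CA2-3 (2397 ± 98.0 CPM) came next. The sum adds probes that may differ in efficiency and is compared between areas only.

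Moran's I, a measure of how alike neighbouring spots are, was taken from the deposited table of each section. Prkcd reached 0.619 to 0.751, which put it between rank 1 and rank 17 of all features of a section. Prkcb followed with 0.413 to 0.581 and Prkce with 0.218 to 0.355. Prkci was lowest at 0.0117 to 0.0388, between the percentiles 48.8 and 70.2 of all features, and Prkcz lay at 0.0371 to 0.0650.

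Among 10200 other features of at least 10 CPM in the whole section, those most like each isoform over the 18 areas were sought by Pearson's r of log2(CPM + 1), with areas that share sections and depth. Prkcd was closest to Synpo2 (r = 0.95), Abhd12b (0.93) and Grid2ip (0.93), of which Synpo2 and Abhd12b are on the thalamic marker list. Prkch was closest to Nexn, Creg1 and Socs6 (r = 0.91 each). Prkcq was closest to Msi2 (0.93), Kif13a (0.91) and Me2 (0.91), and Prkce to Hectd2 (0.95), Rapgefl1 (0.94) and Celf2 (0.94). The conventional Prkca was closest to Mmd (0.92), Hpca (0.92) and Gal3st3 (0.90), and Prkcb to Nr4a1 (0.91), Cacnb1 (0.90) and Rprml (0.90). The atypical Prkci was closest to Vps50 (0.94), Becn1 (0.93) and Nlgn1 (0.93), and Prkcz to Znrf1 (0.89), Phactr3 (0.88) and Cacnb4 (0.86). Among the isoforms themselves Prkcb and Prkci (r = 0.84) and Prkcd and Prkch (r = 0.79) were most alike, and Prkca and Prkch (r = -0.73) least alike.

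**Figure D3:**
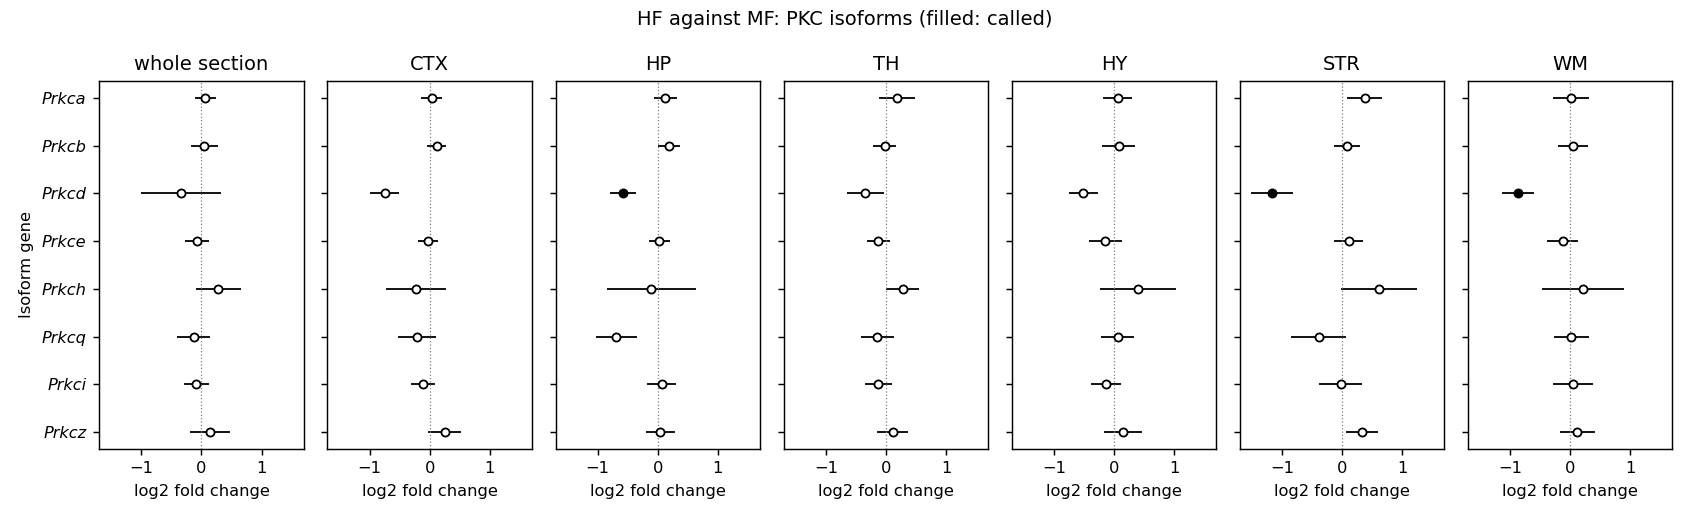
Log2 fold change of HF over MF (x axis; point, with its 95% confidence interval as a bar) for the 8 isoforms (rows) in the whole section and 6 areas (panels), from the edgeR fit over all features with 2 sections per diet. Filled points were called: Prkcd in HP, STR and WM, each below 0.

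The question of the diet comparison is whether excess maternal FA shifted isoform expression in the offspring brain. Prkcd was lower in the HF group in hippocampus (HP), STR and WM, and no other isoform was called in any comparison. Calls needed a change of at least 1.2-fold and a p below 0.05 after Benjamini-Hochberg adjustment over all features tested. At that threshold 31 of 12654 features (0.245%) were called in HP, 8 of 11100 (0.0721%) in STR, 2 of 12642 (0.0158%) in WM and 5 of 13512 (0.037%) in cortex (CTX). Those called lower in the HF group, the direction of Prkcd, were 0.174% of features in HP, 0.036% in STR, 0.00791% in WM and 0.0074% in CTX. No feature was called in the whole section, TH or HY by edgeR, where 1020, 949 and 903 features had an unadjusted p under 0.05 and DESeq2 called 22, 5 and 6 features.

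In STR Prkcd held 103 CPM in both MF sections (332 and 121 UMIs) and 39.2 and 49.5 CPM in the HF sections (31 and 101 UMIs). The HF sections lay below both MF sections, and the mean was 57.0% lower. The log2 fold change was -1.16 ± 0.17 (SE), with a 95% interval from -1.51 to -0.81. The call in STR was lost with DESeq2 (adjusted p = 0.136) and after thinning every spot to one depth (adjusted p = 0.0798).

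In HP the MF sections held 157 and 143 CPM and the HF sections 108 and 93.9 CPM, again without overlap and with a mean 32.5% lower. The log2 fold change was -0.57 ± 0.10 (SE), with a 95% interval from -0.79 to -0.36. Without MF replicate 1, the deepest section, the value was -0.50 and the call was lost. That fit left 1 MF section, and the cause of the loss was not tested.

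In WM Prkcd held 135 and 130 CPM in the MF sections against 67.5 and 76.2 CPM in the HF group, 45.7% lower in the mean. It fell by 0.88 ± 0.12 on the log2 scale (edgeR adjusted p = 0.0288). The WM call held in every alternative run, with log2 fold changes between -1.28 (interior spots) and -0.81. In CTX the MF sections held 76.6 and 72.8 CPM and the HF sections 49.6 and 39.7 CPM. The groups did not overlap, but the log2 fold change of -0.75 ± 0.11 just missed the threshold (edgeR adjusted p = 0.0578). DESeq2 called it (adjusted p = 2.41e-04). The edgeR value was -0.78 without MF replicate 2, -0.90 without HF replicate 1 and -0.59 without HF replicate 2. Each of these fits left 1 section in a diet.

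The thalamus, where Prkcd is highest, gave no call. The 4 sections held 1164, 1174, 1068 and 785 CPM (MF replicates 1 and 2, then HF replicates 1 and 2), for a log2 fold change of -0.34 ± 0.13 (edgeR adjusted p = 0.654). Both HF sections lay below both MF sections, HF replicate 2 by more than HF replicate 1. Without HF replicate 2 the value was -0.15, and without HF replicate 1 it was -0.58, each with 1 HF section left. The Calb2 area, which has less Prkcd, took 33.9% and 34.5% of thalamic spots in the MF sections against 49.2% and 50.8% in the HF group. Within the Tnnt1 area alone the HF mean was 6.03% lower and within the Calb2 area 4.76% lower, and in both areas the groups overlapped. In HY the MF sections held 108 and 122 CPM and the HF sections 80.3 and 82.3 CPM, for a log2 fold change of -0.51 ± 0.10 (edgeR adjusted p = 0.731). With HF replicate 1 as the only HF section, Prkcd in HY stood at -0.53, and with HF replicate 2 in that place it stood at -0.48. Both are effect sizes that rest on 1 HF section. Over the whole section the 4 sections held 327, 356, 359 and 185 CPM, a log2 fold change of -0.34 ± 0.28 (edgeR adjusted p = 0.795). HF replicate 2 alone was low: the value turned to 0.05 without it, and to -0.88 without HF replicate 1.

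**Figure D4:**
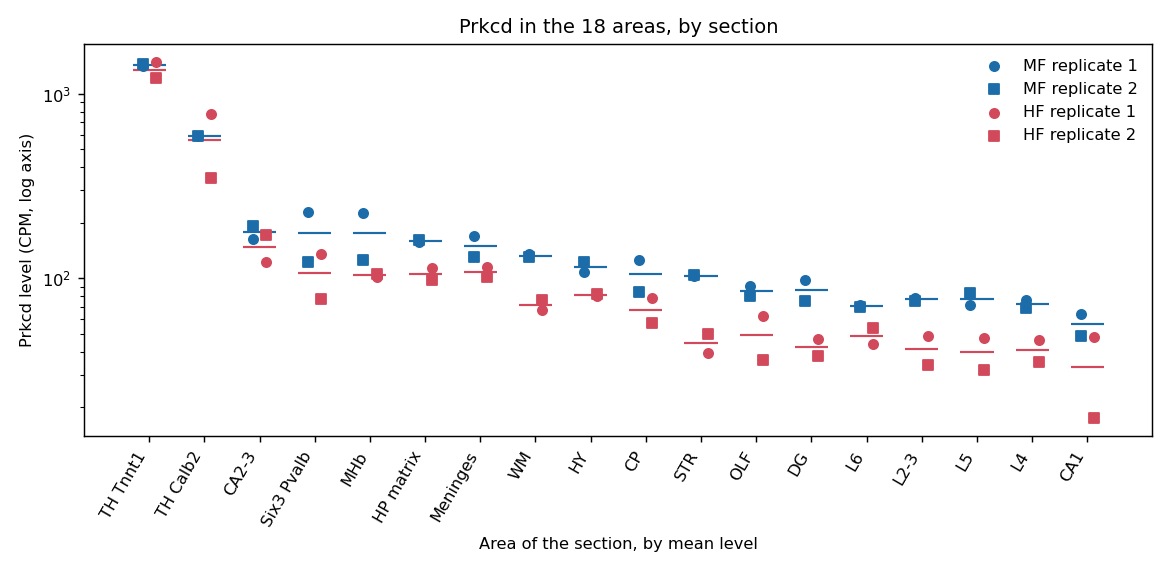
Prkcd level (CPM, log axis) in the 18 areas ordered by mean, with 1 point per section and a line at the mean of each diet. The HF sections (red) both lie below the MF sections (blue) in 14 areas and overlap them in the 2 thalamic areas, CA2-3 and the Six3 and Pvalb cluster.

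Over the 18 areas, both HF sections lay below both MF sections for Prkcd in 14 areas, a count that 0.549% of 10201 features of at least 10 CPM reached. The 4 areas with overlap were the 2 thalamic areas, CA2-3 and the Six3 and Pvalb cluster, which were also the 4 areas with the most Prkcd by mean. CA2-3 held 162 and 192 CPM in the MF sections against 123 and 172 CPM in the HF group. The areas share sections and are not independent. The region by diet terms, which ask whether the diet difference itself differs between CTX, HP, TH, HY and STR, were called for 16 of 14049 features (0.114%) and for no isoform. For Prkcd the spread of the 5 areas' terms was 0.76 on the log2 scale (edgeR adjusted p = 0.274), so a different change in different areas was not shown.

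Outside the thalamus Prkcd was lower far from it than near it, and the HF sections were the lower ones beyond the first step. At 2 array steps from the nearest thalamic spot the MF sections held 207 and 170 CPM and the HF sections 118 and 121 CPM. At 5 to 8 steps they held 123 and 116 CPM against 76.5 and 70.9 CPM, at 9 to 16 steps 93.9 and 99.0 CPM against 55.4 and 65.3 CPM, and at 17 to 35 steps 86.3 and 82.3 CPM against 59.2 and 46.4 CPM. HF replicate 1 was slightly higher in the farthest bin than in the one before. Both HF sections were below both MF sections in each of these bins. The 1-step bin alone overlapped, at 330 and 208 CPM against 218 and 191 CPM. Spots can hold probe signal of neighbouring tissue, and its part in the result was not tested, so the summed level of the 16 thalamic markers is given beside it.

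That sum was 4318, 4594, 4787 and 4333 CPM in TH. At 5 to 8 steps it was 806 and 803 CPM in the MF sections against 793 and 756 CPM in the HF group, and at 17 to 35 steps 699 and 676 CPM against 634 and 636 CPM. The diets overlapped in this sum at 1 step, 2 steps, 3 to 4 steps and 9 to 16 steps. In STR the sum was 643 and 684 CPM against 501 and 549 CPM (ratio 0.79) and 9 of 16 markers were lower in both HF sections, in HP 822 and 762 against 721 and 678 CPM (ratio 0.88, 5 of 16), and in WM 793 and 790 against 732 and 758 CPM (ratio 0.94, 9 of 16). The sum thus moved the same way as Prkcd in these 3 areas and by less. In CTX the ratio of the sum was 0.93 (4 of 16). In HY the diets overlapped in the sum, at 840 and 927 CPM against 878 and 1015 CPM (ratio 1.07). As a share of its own thalamic level, Prkcd in STR was 8.84% and 8.81% in the MF sections against 3.67% and 6.31% in the HF group. Of the 16 thalamic markers, 12 were likewise lower in both HF sections in STR by this share, among them Synpo2 (8.48% and 9.22% against 2.86% and 7.22%) and Tnnt1 (10.4% and 9.44% against 3.87% and 8.14%). The Prkcd share in HP was 13.5% and 12.1% against 10.1% and 12.0%, and in HY the diets overlapped (9.31% and 10.4% against 7.52% and 10.5%). The Prkcd share in CTX was 6.58% and 6.20% against 4.64% and 5.05%. In CTX 11 of the 16 markers, in HP 8, in WM 9 and in HY 5 had a lower share in both HF sections. All striatal spots lay at least 3 steps from the thalamus, and HP spots at that distance gave a log2 fold change of -0.70 with the call kept.

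Markers of white matter and oligodendrocytes were also lower in the HF group in some areas. In HP the sum of 16 such markers was 16902 and 15835 CPM in the MF sections against 11872 and 11061 CPM in the HF group (ratio 0.70), with 16 of 16 lower in both HF sections. In CTX the ratio was 0.81 (16 of 16 lower) and in STR 0.87 (12 of 16 lower), while within WM the sums overlapped, at 83629 and 97066 CPM against 92371 and 83444 CPM (ratio 0.97, 3 of 16 lower). In TH, where Prkcd was not called, the ratio was 0.82 (14 of 16 lower). In HY it was 0.96 (5 of 16 lower), beside a Prkcd mean 29.3% lower. In HP the white matter sum was thus lower by about as much as Prkcd (HF over MF 0.70 against a Prkcd mean 32.5% lower). The part of white matter signal in the HP, CTX, STR, TH and HY values of Prkcd was not tested.

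**Figure D5:**
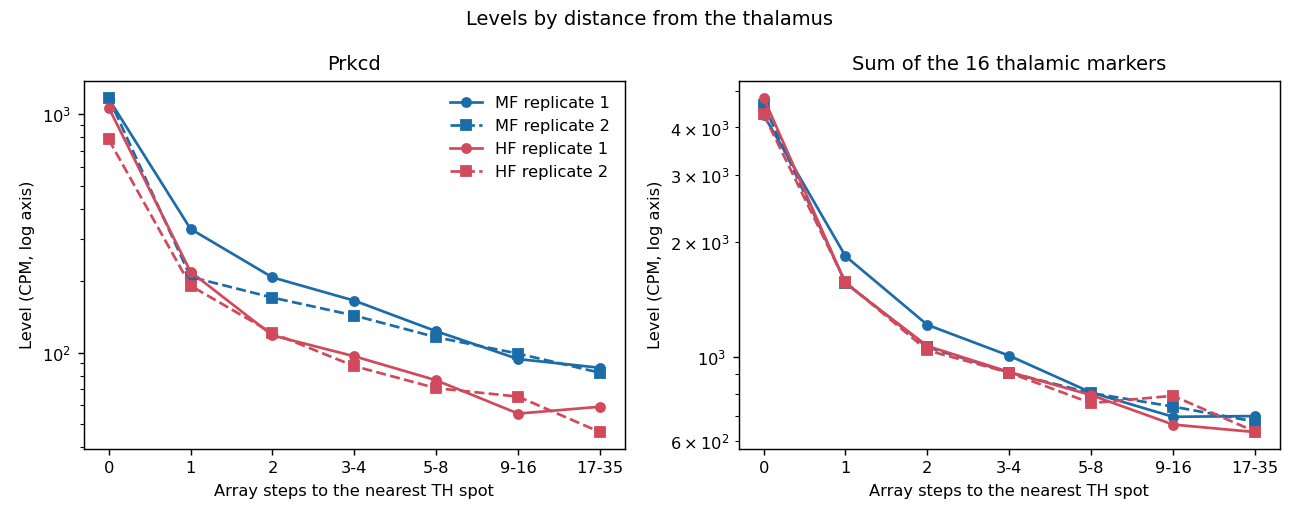
Prkcd (left) and the sum of 16 thalamic markers (right) in CPM on a log axis, by array steps to the nearest thalamic spot, with 1 line per section (blue MF, red HF). From 2 steps outward both HF sections lie below both MF sections for Prkcd, while the marker sums of the diets lie closer together.

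Prkcq was the isoform nearest to a call after Prkcd. In HP it held 33.4 and 29.7 CPM in the MF sections (319 and 124 UMIs) against 21.8 and 18.1 CPM in the HF group (77 and 94 UMIs), without overlap. The log2 fold change was -0.69 ± 0.16 (edgeR unadjusted p = 5.66e-04, adjusted p = 0.119). At the looser limit of an unadjusted p under 0.05 lay 8.61% of all features in HP. Without HF replicate 1 the log2 fold change of Prkcq was -0.82, with 1 HF section left. Prkcq is highest in MHb, which borders HP, and the summed MHb markers in HP moved with it: 312 and 248 CPM in the MF sections against 205 and 166 CPM in the HF group (ratio 0.66), with 8 of 10 markers lower in both HF sections. Prkcq is also high in WM, whose markers in HP had the ratio of 0.70 given above, with 16 of 16 lower in both HF sections. The part of habenular or white matter signal in this value, and of habenular signal in that of Prkcd in HP, was not tested. In MHb itself Prkcq was 1.01-fold in HF over MF, at 254 and 318 CPM against 280 and 295 CPM.

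The other 6 isoforms had log2 fold changes between -0.23 and 0.61 in the 7 comparisons, and none passed the threshold. The widest departure was that of Prkch in STR, at 13.3 and 9.40 CPM against 16.4 and 19.6 CPM, from 11 to 43 UMIs per section (0.61 ± 0.32, edgeR adjusted p = 0.782). Prkch in HY came next, at 4.62 and 5.22 CPM against 5.37 and 7.61 CPM (0.40 ± 0.27, edgeR adjusted p = 0.777). Prkca in STR held 108 and 93.2 CPM in the MF sections against 148 and 123 CPM in the HF group (log2 fold change 0.38 ± 0.15, edgeR adjusted p = 0.566). Prkcz in STR held 177 and 170 CPM against 181 and 245 CPM (0.33 ± 0.13, edgeR adjusted p = 0.613), the higher mean coming from HF replicate 2. With HF replicate 2 as the only HF section, the Prkcz value was 0.49 in STR, 0.45 in CTX and 0.33 in the whole section. That of Prkcq was -0.27 in the whole section. With HF replicate 1 as the only HF section, Prkch stood at 0.47 in the whole section and Prkca at 0.33 in TH. Each of these values rests on 1 HF section. Intervals were narrow for isoforms with many UMIs: for Prkcb in CTX the 95% interval ran from -0.04 to 0.27 and for Prkce from -0.20 to 0.13.

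The 18 areas were also counted for the other isoforms, without a test and beside the share of features that reached each count. Prkce was lower in both HF sections in 9 areas, which 5.19% of features reached, and Prkci in 6 areas, which 17.6% reached. Prkcb was higher in both HF sections in 7 areas, a count that 11.5% of features reached, and Prkch in 6 areas, which 16.8% reached. The opposite count was 0 areas for Prkce and Prkci and 1 area for Prkcb and Prkch. Prkca was lower in 2 areas and higher in 3, Prkcq lower in 3 and higher in 2, and Prkcz lower in 2 and higher in 4. Prkcb in CA2-3 held 612 and 642 CPM in the MF sections against 803 and 764 CPM in the HF group, and Prkce in the same area 780 and 834 CPM against 726 and 768 CPM. The median log2 fold change of the 8 isoforms was between -0.07 and 0.10 in the 7 comparisons, and that of all features tested was at most 0.00301.

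The rest of the pathway was read from a list of 67 genes in 8 roles, of which 63 to 67 were tested per comparison. None was called in either direction in the 7 comparisons, by edgeR or by DESeq2. At an unadjusted p under 0.05, HP had 9 genes of the list higher and 4 lower in the HF group, beside 8.61% of all features in either direction. The whole section had 3 higher and 0 lower (6.81% of all features), CTX 1 higher and 1 lower (7.67%), TH 4 higher and 1 lower (7.1%) and HY 2 higher and 0 lower (6.67%). STR had 3 higher and 1 lower (6.45%) and WM 1 higher and 0 lower (4.8%). The median log2 fold change of the list was 0.04 to 0.08, beside a median of all features near 0.

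Named by the largest change per role in the whole section, the receptor was Chrm1, a muscarinic acetylcholine receptor, at 33.0, 32.2, 34.2 and 41.7 CPM (MF replicates, then HF replicates; log2 fold change 0.21 ± 0.11). The G protein was Gnaq, the alpha subunit of Gq, at 94.2, 88.8, 94.9 and 72.6 CPM (-0.14 ± 0.12). The phospholipase C was Plcd4, at 14.6, 14.9, 18.2 and 17.3 CPM (0.26 ± 0.09), and the diacylglycerol kinase, an enzyme that removes diacylglycerol, was Dgkg at 19.4, 20.1, 22.6 and 22.6 CPM (0.19 ± 0.08). The polarity scaffold Pard3, a partner of the atypical isoforms, held 17.3, 17.7, 20.2 and 20.8 CPM (0.22 ± 0.09). The inositol trisphosphate receptor was Itpr2 (-0.13 ± 0.08), the PKC substrate Add1, an adducin (-0.18 ± 0.07), and the other diacylglycerol-responsive kinase Prkd2 (0.28 ± 0.11). All 8 had an edgeR adjusted p between 0.696 and 0.82. Gnaq overlapped between the 2 diets, and its lower mean came from HF replicate 2. The others did not overlap, but all were picked by the size of their change in these same sections. Their lack of overlap is therefore no separate result.

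Several pathway genes, named after their values were seen, shared the isoforms' areas. The adrenergic receptor Adra1b was highest in the Tnnt1 thalamus (177 CPM) and then in the Calb2 thalamus (141 CPM), as was Plcb4, a phospholipase C (429 and 343 CPM), which is the order of Prkcd. Dgkh, a diacylglycerol kinase, was highest in DG (648 CPM), the area of Prkce. Dgkb was highest in STR (515 CPM). Plcb4 in HP had a log2 fold change of -0.54 ± 0.11 (edgeR adjusted p = 0.0596), the gene of the list nearest to a call there.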

How the data were processed

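UMI counts per spot and feature were deposited by the authors, made with Space Ranger 2.0.0 on the mm10 build, as was a table with Moran's I, a score per feature. Spots under 500 UMIs or 250 genes were removed, leaving 13452. Spots were clustered (2000 variable genes, 30 principal components, Leiden resolution 1, leidenalg 0.10.2) without the 77 isoform, pathway and related features and named from fixed marker lists; 2 cortical sub-clusters led by markers of another class were left out. The members and lists were chosen with earlier results of these data known.

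Counts summed per section and area were tested with edgeR 4.0.16 (R 4.3.3; TMM, filterByExpr, quasi-likelihood), sections being the replicates and p-values being adjusted over all features. DESeq2 1.42.0, other filters, depths, resolutions and replicate sets were alternatives. Scripts were tested on simulated data. Named genes were the 8 isoforms, the 3 features most like each over the areas, and the pathway gene with the largest change per role; Adra1b, Plcb4, Dgkh and Dgkb were added after their values were seen. Doublets do not apply to spots. Depth set the precision: sums held 791728 to 28712738 UMIs per area and section.

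Matched nuclei data were not analysed here. Replicate numbers did not pair the sections, the correlation of same-numbered deviations being between -0.16 and 0.02.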

Additional observations from a re-analysis of the deposited data

How the results depend on the processing

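Beside those of Prkcd in HP and STR, 706 isoform values were recomputed under the alternatives: 685 kept their side of the threshold and 21 passed it where the reported value did not. There were 42 changes of sign, all between values that were not called. Prkcd in WM was called in every alternative. Prkcd in STR was not called with DESeq2 (log2 fold change -1.19) or with spots thinned to one depth (-1.01), and Prkcd in HP, whose values without 1 section ran from -0.67 to -0.47, was not called without MF replicate 1; the cause was not tested. Calls of all features (whole section, CTX, HP, TH, HY, STR and WM in turn) numbered 0, 5, 31, 0, 0, 8 and 2. They were 22, 21, 27, 5, 6, 1 and 2 with DESeq2, 5, 151, 133, 113, 21, 15 and 23 with no filter on low counts, and 0, 11, 17, 1, 0, 4 and 8 with thinned spots. Interior spots gave 9 in CTX, 4 in STR and 4 in WM, and Leiden resolution 0.5 gave 4 in STR. With 1 section left out they ranged from 0 to 1166 in the whole section, 11 to 402 in CTX, 12 to 512 in HP, 0 to 873 in TH, 0 to 809 in HY, 8 to 136 in STR and 6 to 112 in WM.

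The replicate block, for numbers that did not pair the sections, gave 20 features in HP, 44 in TH and 8 in WM, and changed no isoform's call. The crossed pairing, added after seeing the data, gave 11 features in the whole section, 152 in CTX, 108 in HP, 159 in TH, 22 in STR and 20 in WM, with 1, 2 and 1 isoforms and 1, 1 and 0 pathway genes in CTX, HP and TH.

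Isoforms called numbered 1 in CTX and 0 in STR with DESeq2, 0 in STR with thinned spots, and 1 in CTX, 2 in HP (Prkcd and Prkcq) and 1 in TH with no filter. Without 1 section they ranged from 0 to 3 in the whole section, 0 to 2 in CTX and HP, 0 to 1 in TH and HY, and 1 to 2 in STR. Of the pathway genes, 1 was called in HP with library size alone, with resolution 0.5 and with no filter, which also called 1 in CTX; without 1 section the range was 0 to 8 in the whole section, 0 to 2 in CTX and STR, 0 to 5 in HP and TH, and 0 to 3 in HY. Region by diet terms passed for 302 features and 2 isoforms with no filter, and for 0 to 402 features and 0 to 1 isoforms without 1 section. Over 9 areas the highest area was the same for 6 of 8 isoforms at resolution 0.5 (7 of 8 by make-up) and for 7 to 8 without 1 section. Depth limits Prkch most, with 11 UMIs in STR of MF replicate 2.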
